A study of Mus musculus with 6 samples.

Results

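The genes described here are 10 inhibitors of mitogen-activated protein (MAP) kinase signalling, measured in megakaryocytes of the mouse, the cells from which platelets come. They comprise 6 dual-specificity phosphatases, Dusp1, Dusp2, Dusp4, Dusp5, Dusp6 and Dusp10, and 4 inhibitors that act further upstream, Spry1, Spry2, Spred1 and Spred2. The members were taken by name: all probe sets of the deposited table whose platform annotation names only one of these genes were used, which gave 23 of 45101 probe sets, for 10 of the 18193 genes with such a probe set.

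MAP kinases (ERK, JNK and p38) are switched on by phosphorylation at the end of a kinase cascade and are switched off again when dual-specificity phosphatases remove those phosphates. Many of these phosphatases are themselves induced by MAP kinase activity and so close a negative feedback loop. Sprouty and Spred proteins act nearer the membrane, where they dampen the step from growth factor receptors through Ras and Raf to ERK. In megakaryocytes this route carries the signal of thrombopoietin, and ERK activity is known to accompany their differentiation.

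The series compared 3 samples labelled as a Gata-1 knock down with 3 labelled as wild type, each on 1 Affymetrix mouse array. The protein, GATA1, regulates transcription in the red cell and megakaryocyte lineages. Both groups were megakaryocytes grown in differentiation medium from progenitors of fetal livers at day 13.5 and then collected on a gradient of bovine serum albumin, per the labels. How the knock down was made, the strain, and whether the samples of a group came from separate cultures or animals were not given in the labels, so p-values here cover the spread between these samples alone, and that spread may be technical.

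Gata1, the check of the labels, had a mean signal of 8489 ± 239 in wild type (SD, n = 3) but 164 ± 27.2 in knockdown (SD, n = 3). All 10 tested megakaryocyte markers were brighter, on all 6 arrays, than any of the 27 control probe sets for bacterial transcripts, which serve here as the background. Array medians ran from 101.6 to 104.4 in wild type and from 111.3 to 137.8 in knockdown. Knockdown B stood apart: its median was the highest, and its brightest bacterial control read 132, where the other 5 arrays read 60.7 to 82.2. Without it, all 8 calls on the feedback genes held (highest adjusted p 0.00469), and the largest move among them was that of Spry1, from a log2 fold change of -1.65 to -1.75. The number of arrays limits the precision.

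Among the 10 genes, 4 were lower in knockdown, 4 were higher, 1 did not pass the test and 1, Dusp5, was too dim to be tested. Dusp10, Dusp1 and Spry1 fell most, by 3.14-fold to 5.62-fold, and Spred2 fell by a smaller amount. Spred1, Dusp2, Spry2 and Dusp4 rose, by 1.21-fold to 1.82-fold, and Dusp6 did not pass. A gene was said to rise or fall where the adjusted p of its brightest probe set was at most 0.05 (limma, Benjamini-Hochberg over 31526 probe sets), on a scale of log2(signal + 32) after quantile normalization, where changes of dim genes come out too small. Of the 9 tested members, 88.9% were called, against 35.5% of the 14230 genes tested, of which 18.3% were higher and 17.1% lower. The 3 members called with a fitted change of at least 2-fold are 33.3% of those tested, against 7.21% of all genes. The deposited signals of the groups did not overlap for 8 of the 9 members, against 49.4% of genes. The members are few and were listed by name, with earlier results of these data known. These shares therefore describe them and are not a test.

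**Figure D1:**
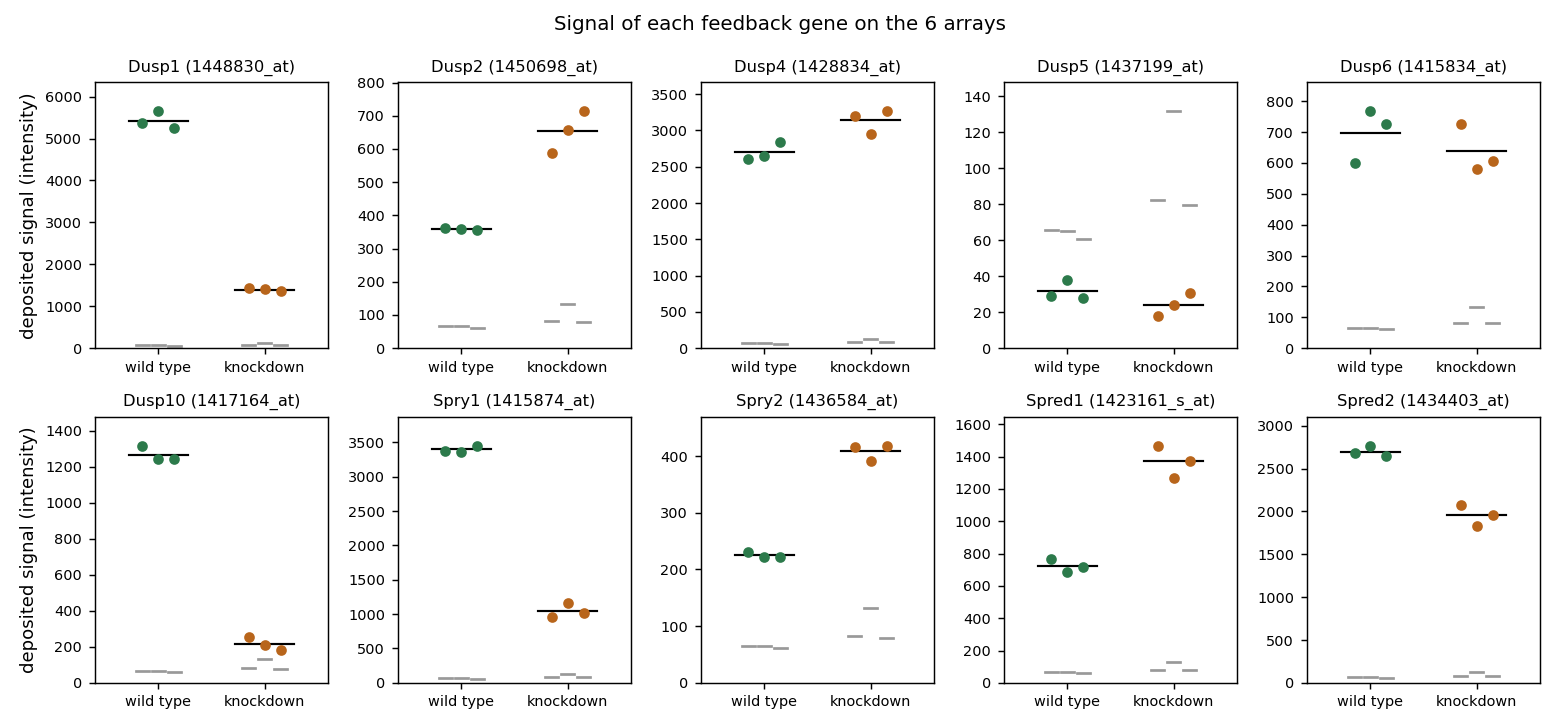
Deposited signal (intensity, linear axis from 0) of the brightest probe set of each of the 10 genes on the 3 wild-type and 3 knockdown arrays. Points are arrays in the order A, B and C, black bars are group means and short grey bars are the highest bacterial control signal of each array. Dusp1, Dusp10, Spry1 and Spred2 lay lower on every knockdown array than in all of wild type, Dusp2, Dusp4, Spry2 and Spred1 were higher on each, the groups overlapped for Dusp6, and all Dusp5 points lie below the control bars.

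Among the phosphatases, Dusp1 is an inducible nuclear enzyme that acts on p38, JNK and ERK, and an immediate early gene in many cells. It read 1424, 1405 and 1358.1 in knockdown A, B and C, and 5359.5, 5660.6 and 5255.1 in wild type A, B and C. The groups were far apart and the arrays of each group lay close together. The mean fell from 5425 ± 211 to 1396 ± 33.9 (SD, n = 3), and the log2 fold change was -1.89 ± 0.06 (SE; adjusted p 1.93e-08), or 3.71-fold lower.

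Dusp10 prefers p38 and JNK over ERK as substrates and showed the largest change of the 10 genes. Its brighter probe set, 1417164_at, read 256.1, 208 and 184.2 in knockdown and 1318.9, 1241.8 and 1242.4 in wild type. No knockdown array came near the lowest wild-type value, and the log2 fold change was -2.49 ± 0.13 (SE; adjusted p 3.96e-07), or 5.62-fold lower. The second probe set, 1417163_at, read 55.6, 103 and 40.1 against 247.3, 248.9 and 273.2. These knockdown signals lay at or below the bacterial controls on each array, so the change is given as a bound, at least 2.51-fold lower (adjusted p 0.000153). Both probe sets of Dusp10 therefore fell.

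Dusp2, a nuclear phosphatase known mainly from blood cells, moved the other way. It read 586.8, 657.4 and 715 in knockdown and 362.6, 359 and 355.1 in wild type. The wild-type arrays were almost level, and the lowest knockdown array was well above them. The log2 fold change was 0.72 ± 0.11 (SE; adjusted p 0.000699), and the mean rose from 359 ± 3.75 to 653 ± 64.2 (SD, n = 3).

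Dusp4, a further nuclear phosphatase of ERK and JNK, read 3198.7, 2949.8 and 3271.1 in knockdown and 2611.6, 2648.5 and 2841.3 in wild type. The groups did not overlap, but the gap between the lowest knockdown and the highest wild-type array was narrow. The log2 fold change was 0.28 ± 0.06 (SE; adjusted p 0.00551). This call depended on the scaling of the arrays: with arrays centred on their medians the value was 0.02 and the adjusted p 0.927. It was also lost without an intensity trend in the variance model (adjusted p 0.0620).

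Dusp6 is a cytoplasmic phosphatase specific for ERK and a classical readout of ERK activity. It read 724.8, 579.8 and 607.7 in knockdown and 599, 769 and 726.6 in wild type, so the groups overlapped. The log2 fold change was -0.18 ± 0.12 (SE; adjusted p 0.298), with a 95% confidence interval from -0.45 to 0.08. A change of this gene within that interval cannot be told from none with these arrays.

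Dusp5, a nuclear phosphatase specific for ERK, read 17.7, 23.9 and 30.8 in knockdown and 29, 38.1 and 27.6 in wild type. All these signals lay below the bacterial controls of their arrays, so its 1 probe set was not above background in either group and was left out of the test. No level or direction is given for it.

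The Sprouty pair split. Spry1 read 952.9, 1164.3 and 1018.3 in knockdown and 3379, 3355.6 and 3452.7 in wild type. The highest knockdown array stayed far below the lowest wild-type array. The log2 fold change was -1.65 ± 0.09 (SE; adjusted p 4.38e-07), and the mean fell from 3396 ± 50.7 to 1045 ± 108 (SD, n = 3).

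Spry2, an inhibitor of the same receptor pathway, was higher by its brighter probe set, 1436584_at, with 415.9, 391.3 and 418.6 in knockdown and 230.8, 222.1 and 222.3 in wild type. The groups did not overlap, and the log2 fold change was 0.65 ± 0.12 (SE; adjusted p 0.00203). Its other probe set, 1421656_at, read 37, 57.7 and 41.4 against 90.9, 31 and 36.3. That probe set lay above the bacterial controls on wild type A alone and did not pass (log2 fold change -0.23 ± 0.35, adjusted p 0.679). When both probe sets were averaged, the log2 fold change of Spry2 was 0.21 and the call was lost (adjusted p 0.447), so the rise rests on 1 probe set.

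The Spred proteins share a Ras-ERK inhibitory domain with Sprouty, and Spred1 is known to bring neurofibromin, a Ras GTPase-activating protein, to the membrane. Spred1 had 8 probe sets, the most of any member. The brightest, 1423161_s_at, read 1467.7, 1269.7 and 1371.4 in knockdown and 766.5, 686.1 and 716 in wild type, without overlap. Its log2 fold change was 0.86 ± 0.08 (SE; adjusted p 2.91e-05). Of the 7 tested probe sets 6 rose, with log2 fold changes from 0.55 to 0.94. The exception, 1460116_s_at, read 680, 302.6 and 412.7 against 282.2, 326.7 and 349.7, where knockdown A was far above the other arrays and knockdown B lay among the wild-type values. It had a log2 fold change of 0.31 ± 0.24 (adjusted p 0.393). The last probe set, 1445228_at, was below the bacterial controls on all 6 arrays and was not tested.

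Spred2, the second member of the family, read 2077.3, 1832.3 and 1964.1 in knockdown and 2678.6, 2769.5 and 2650.3 in wild type by its brightest probe set, 1434403_at. The groups did not overlap, and the log2 fold change was -0.41 ± 0.06 (SE; adjusted p 0.000685). None of its other 4 probe sets passed. Of these, 1436892_at had -0.30 ± 0.13 (adjusted p 0.117) and 1441415_at -0.13 ± 0.14 (adjusted p 0.546). The remaining 2, 1441802_at and 1423001_at, read at most 95.2 and 130.2 and lay at or below the bacterial controls on most arrays. When its 5 probe sets were averaged, the value was -0.14 and the call was lost (adjusted p 0.362).

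**Figure D2:**
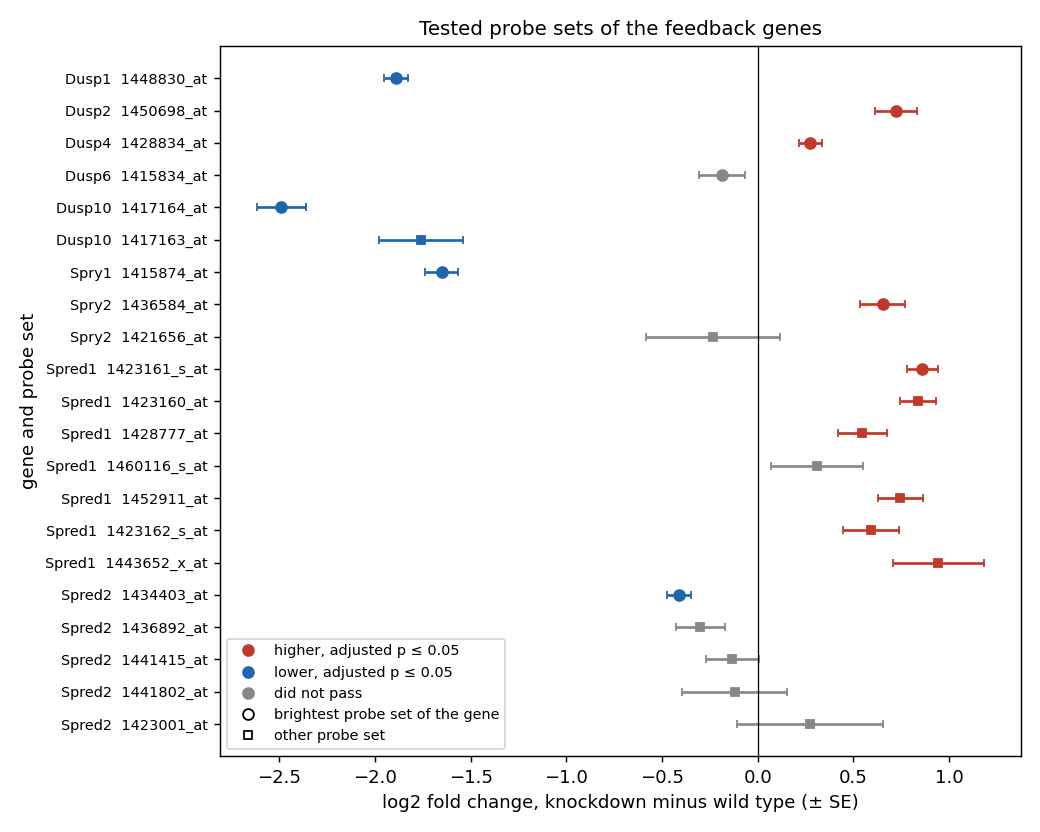
Log2 fold change, knockdown minus wild type, with its SE, for the 21 tested probe sets of the feedback genes. Circles are the brightest probe set of a gene and squares the others; red marks a rise and blue a fall at an adjusted p of at most 0.05, and grey a probe set that did not pass. Both Dusp10 probe sets and 6 of 7 Spred1 probe sets moved one way, while Spry2 and Spred2 were called by 1 probe set each.

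Over all tested probe sets of the members, 14 of 21 were called, 9 higher and 5 lower, against 30.4% of all probe sets tested, 16.1% higher and 14.3% lower. The groups did not overlap for 14 of the 21, against 46.0%. Spred1 alone gives 6 of the 9. Probe sets of a gene share its transcripts and are not independent.

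The promoters of the 4 genes that fell are shown because the letters of well-known control elements can be read in them. Each window runs from 250 bases before to 50 bases after the gene start and comes from RefSeq, build GRCm38.p6: chr17:26508423-26508722 on the minus strand for Dusp1, chr1:184034131-184034430 on the plus strand for Dusp10, chr3:37639697-37639996 on the plus strand for Spry1 and chr11:19924192-19924491 on the plus strand for Spred2. Sequences are 5′ to 3′ on the gene's strand. Capitals mark the core of the cyclic AMP response element (CRE), TGACGT, and the CCAAT box, CCAAT, on either strand. Of the 7 motifs searched, only these had matches in the 4 windows, and whether they bear on the falls was not tested.
Dusp1: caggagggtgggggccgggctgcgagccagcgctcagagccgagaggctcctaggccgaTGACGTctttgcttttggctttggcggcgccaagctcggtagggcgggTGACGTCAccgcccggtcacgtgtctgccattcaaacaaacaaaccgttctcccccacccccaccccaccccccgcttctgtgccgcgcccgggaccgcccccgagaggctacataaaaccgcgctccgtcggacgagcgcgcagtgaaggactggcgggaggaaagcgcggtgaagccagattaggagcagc
Dusp10: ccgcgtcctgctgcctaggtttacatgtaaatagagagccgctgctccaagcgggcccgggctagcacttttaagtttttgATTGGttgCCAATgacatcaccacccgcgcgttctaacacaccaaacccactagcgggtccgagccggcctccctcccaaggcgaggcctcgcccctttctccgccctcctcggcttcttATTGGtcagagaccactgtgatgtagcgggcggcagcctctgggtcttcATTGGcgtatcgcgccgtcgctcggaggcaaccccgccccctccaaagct
Spry1: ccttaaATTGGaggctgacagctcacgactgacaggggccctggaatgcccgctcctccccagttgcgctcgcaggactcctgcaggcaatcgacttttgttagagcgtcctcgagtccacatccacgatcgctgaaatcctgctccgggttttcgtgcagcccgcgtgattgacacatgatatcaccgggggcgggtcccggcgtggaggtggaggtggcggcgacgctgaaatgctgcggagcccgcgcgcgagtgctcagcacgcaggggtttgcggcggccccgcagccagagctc
Spred2: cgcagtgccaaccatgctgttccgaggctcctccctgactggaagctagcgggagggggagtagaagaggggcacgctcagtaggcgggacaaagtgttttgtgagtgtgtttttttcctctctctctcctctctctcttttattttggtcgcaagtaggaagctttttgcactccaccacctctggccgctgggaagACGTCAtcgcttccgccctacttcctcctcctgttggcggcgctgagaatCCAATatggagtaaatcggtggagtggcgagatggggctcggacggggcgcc

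Dusp1 carries CRE cores around 191 and 143 bases before its start, the latter overlapping a second match on the other strand so that both form 1 full palindrome. Dusp10 has 4 CCAAT boxes, Spry1 has 1, and Spred2 has 1 CRE core and 1 CCAAT box. Windows were at hand for 9 of the 10 genes, Dusp4 being the one without. CRE cores were in 3 of the 9 windows (Dusp1, Dusp5 and Spred2) and in 7.51% of the 32851 windows of the table. CCAAT boxes were in 4 of 9 (Dusp6, Dusp10, Spry1 and Spred2) and in 37.4% of windows.

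The CArG box, the element of serum response factor, was found in Dusp5 alone, with 2 boxes that adjoin, and in 1.63% of windows. The ETS core CCGGAA was found in Spry2 alone, against 14.9% of windows. The GATA element, searched as AGATAA with its variant AGATAG and as TGATAA with its variant TGATAG, was in 0 of the 9 windows and in 29.8% of all windows. The AP-1 element TGANTCA and the TATA word TATAAA were in 0 of 9, and in 7.81% and 13.6% of all windows. All motifs were searched on both strands. The windows of the members held 57.0% to 72.3% G and C, against a median of 52.7%, and how this bears on the counts of motifs was not tested. A match is a description of letters, and these windows cover only the bases next to the start.

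**Figure D3:**
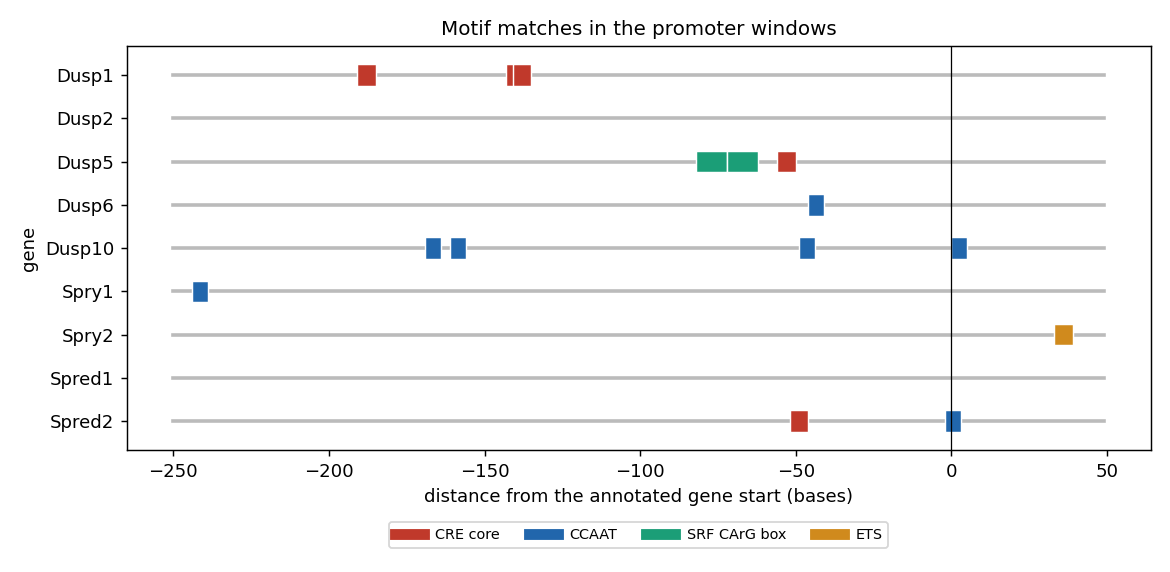
Position of motif matches in the promoter windows of 9 feedback genes, in bases from the annotated gene start, where 0 is the first base of the gene. Grey lines are the windows and coloured bars the matches on either strand. CRE cores lie in Dusp1, Dusp5 and Spred2, CCAAT boxes in Dusp6, Dusp10, Spry1 and Spred2, adjoining CArG boxes in Dusp5 and the ETS core in Spry2.

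The scaling of the arrays was examined for each gene, since it sets the balance of rises and falls: 52.9% of called probe sets were higher here and 32.9% with arrays centred on their medians. The median log2 fold change of all probe sets tested was 0.04 here, 0.15 with the values as deposited and -0.05 with arrays centred. Over 15 alternatives, the log2 fold changes ran from -2.13 to -1.84 for Dusp1, from -2.67 to -2.13 for Dusp10, from -1.87 to -1.58 for Spry1, from 0.61 to 0.81 for Dusp2 and from 0.69 to 0.91 for Spred1. The calls of these 5 genes held under each of the 15. Those of Dusp4, Spry2 and Spred2 were each lost under 1 or 2, as given above, and no member changed sign. The deposited signals of Dusp4 were higher in knockdown by 1.16-fold in the group means.

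**Figure D4:**
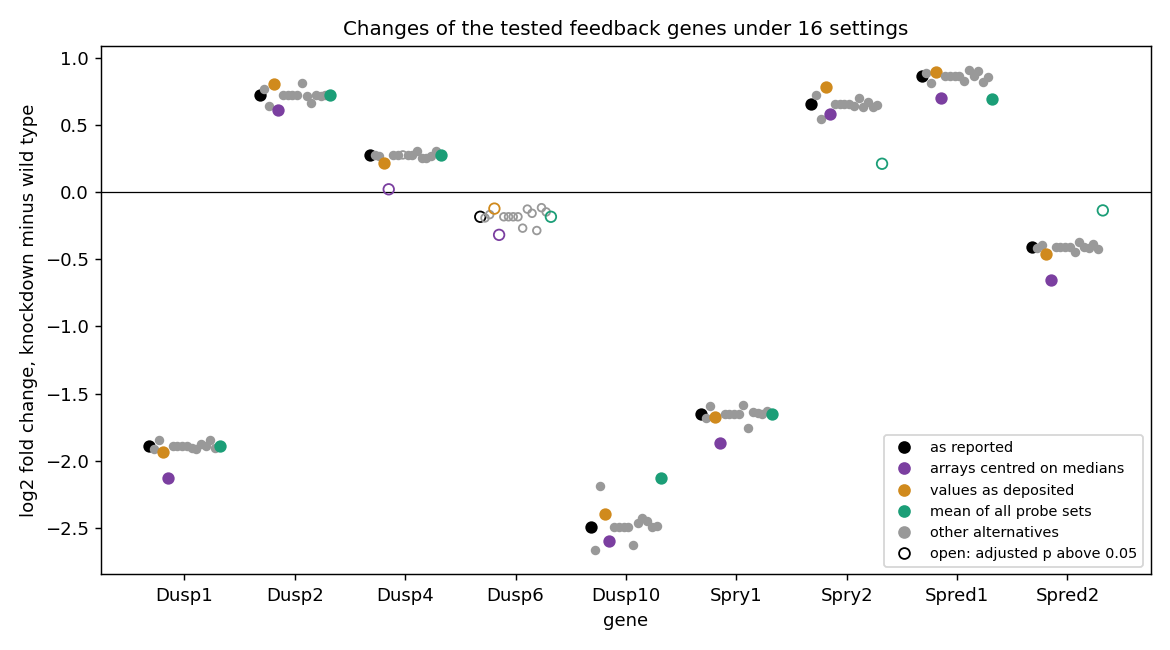
Log2 fold change, knockdown minus wild type, of the 9 tested feedback genes as reported (black) and under 15 alternatives. Filled points passed an adjusted p of 0.05 and open points did not; purple is arrays centred on their medians, orange the values as deposited, green the average over a gene's probe sets and grey the others. Dusp4 lies near 0 with arrays centred, Spry2 and Spred2 lie nearest 0 with that average, and Dusp1, Dusp10 and Spry1 stay below -1.5 throughout.

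The rest of the pathway was examined through lists of genes named by role. These lists too were chosen with earlier results of these data known, so their shares are not a test. The first list held other dual-specificity phosphatases and other regulators of the pathway, not all of them feedback genes. Of its 30 genes 27 were tested, of which 4 rose, 9 fell and 14 did not pass. The median log2 fold change was -0.22, against 0.03 over all genes. The share called was 48.1%, against 35.5% of all genes tested. Dusp14, another dual-specificity phosphatase, fell by 2.39 ± 0.11 (SE) on the log2 scale and Dusp23 by 1.10 ± 0.14. The Ras GTPase-activating proteins moved in both directions. Rasa2 fell by 1.81 ± 0.19 and Rasa3 by 1.15 ± 0.04, while Rasal1 rose by 1.61 ± 0.28. Rasal2 rose by 0.51 ± 0.16. Nf1, the neurofibromin gene, also fell, by 0.52 ± 0.15 (adjusted p 0.0232), and Rasa1 did not pass (adjusted p 0.891). Pea15a, which holds ERK in the cytoplasm, fell by 0.78 ± 0.10. Pebp1, the Raf kinase inhibitor protein, rose by 0.38 ± 0.04, and Dusp11, a phosphatase of RNA ends, by 0.58 ± 0.06. The call of Rasal2 was lost without any 1 array but knockdown B (adjusted p 0.0735 to 0.125), and median centring ended those of Rasal2 and Pebp1 (0.0807 and 0.0599).

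Between the receptors and Ras, 19 of 24 listed genes were tested, and 4 rose, 7 fell and 8 did not pass (median -0.15; 57.9% called, against 35.5% of all genes). The exchange factors that load Ras and Rap with GTP moved in both directions. Rasgrp2, which activates Rap1 in platelets, went from 6625 ± 118 to 847 ± 74.7 (SD, n = 3), by -2.90 ± 0.08 (SE) on the log2 scale. Rasgrp3, whose knockdown signals lay within background, was lower by at least 1.42-fold. Sos1 and Sos2 rose by 1.09 ± 0.09 and 0.61 ± 0.14. Kit, the receptor of stem cell factor, rose by 0.84 ± 0.11 and the docking protein Gab2 by 0.27 ± 0.07, while its relative Gab1 fell by 1.11 ± 0.14, the kinase Jak2 by 0.86 ± 0.08 and the small GTPase Rras by 0.41 ± 0.08. The call of Gab2 was lost on leaving out wild type B or C (adjusted p 0.0567 to 0.0912). Median centring of the arrays ended the calls of Gab2 and Sos2 (0.828 and 0.0741).

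From Raf to ERK, 10 of 14 listed genes were tested, and 3 rose, 3 fell and 4 did not pass (median 0.11; 60% called, against 35.5% of all genes). The scaffold Ksr1, which gathers Raf, MEK and ERK, fell by 1.53 ± 0.08 (SE), from 1802 ± 80.4 to 611 ± 12.6 (SD, n = 3). The ERK5 gene Mapk7 fell by 1.07 ± 0.27 and the MEK gene Map2k2 by 0.32 ± 0.07. Map2k1, the other MEK gene, rose by 0.28 ± 0.08, the scaffold Lamtor3 by 0.37 ± 0.10 and Araf by 0.25 ± 0.08. None of these 3 rises was called after median centring (adjusted p 0.955, 0.566 and 0.876), nor without knockdown C, or wild type B or C (0.0522 to 0.118). Araf was also lost without knockdown B or wild type A, and Mapk7 without wild type C (0.0529).

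The next list held kinases of the p38 and JNK branches and the scaffolds Mapk8ip1 and Mapk8ip3. Of its 25 genes 21 were tested, and 1 rose, 7 fell and 13 did not pass (median -0.17). The share called, 38.1%, was close to the 35.5% of all genes. Map2k6, a kinase of p38 whose knockdown signals lay within background, was lower by at least 1.28-fold, and Map2k3, another, fell by 0.30 ± 0.07 (SE). Taok3 fell by 0.66 ± 0.08, Map3k4 by 0.49 ± 0.15 and Map3k3 by 0.48 ± 0.13, and Map3k11 rose by 0.32 ± 0.09. The number that fell was 3 without knockdown C or wild type A and 4 without either wild type B or C. Map3k11 was called without knockdown A alone of the 6 arrays (adjusted p 0.0503 to 0.0976 without any other), and it was lost after median centring (0.277). Map3k4 and Map3k3 lost their calls without 4 and 3 of the arrays (up to 0.140 and 0.0777). Among kinases downstream of ERK and p38, 7 of 10 were tested, and 2 rose, 1 fell and 4 did not pass (median -0.12; 42.9% called, against 35.5% of all genes). Rps6ka5 rose by 0.63 ± 0.13 and Mapkapk3 by 0.38 ± 0.08, a call lost with arrays centred (0.568). Mapkapk2 fell by 0.23 ± 0.07, a call lost without any 1 array but knockdown B (0.0550 to 0.139).

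The list of genes known as transcriptional outputs of ERK signalling also held the transcription factors Srf, Elk1, Elk3 and Elk4. Of its 25 genes 22 were tested, and 5 rose, 8 fell and 9 did not pass, with no common direction. The median was -0.19, and 59.1% were called, against 35.5% of all genes. The immediate early genes Fos and Fosb fell by 1.75 ± 0.08 and 1.98 ± 0.14 (SE), Junb by 0.67 ± 0.08 and Klf6 by 0.66 ± 0.06, and the cyclin gene Ccnd1 fell by 1.47 ± 0.16. Myc and Klf2 rose by 0.78 ± 0.08 and 0.78 ± 0.09, Ier2 by 0.52 ± 0.07, Phlda1 by 0.34 ± 0.06 and Egr1 by 0.31 ± 0.08. The calls of Phlda1 and Egr1 were lost after median centring (adjusted p 0.791 and 0.815), and that of Egr1 also without wild type A (0.0513). With each array left out in turn, 4 or 5 of these genes rose and 6 to 10 fell, the fewest falls being without wild type B or C and the most without knockdown A.

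Markers of macrophages, neutrophils and mast cells were mostly lower in knockdown, and 0 were called higher. All 10 tested of 12 macrophage markers fell, or 9 on leaving out any 1 of knockdown B and C and wild type B and C, and their summed signal was 7918 to 8025 in knockdown and 20752 to 21396 in wild type. The brightest were Csf1r, at -1.40 ± 0.05 (SE), and Cd68, at -1.08 ± 0.09, while Cd163 and Timd4 lay below the bacterial controls on all arrays. Of 9 tested neutrophil markers 8 fell, led in signal by S100a9 and S100a8 at -2.23 ± 0.12 and -1.96 ± 0.08, with sums of 2999 to 3101 against 11008 to 11387. Of 10 mast cell markers 7 fell, with sums of 1317 to 1522 against 4433 to 5085, and 7 (Mcpt1, Mcpt4, Tpsb2, Tpsab1, Fcer1a, Ms4a2 and Hdc) were within background on all knockdown arrays. Cpa3, the brightest, changed by -1.19 ± 0.08, and Mcpt2, above background on 1 of 3 knockdown arrays, was at least 7.59-fold lower.

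Red cell and megakaryocyte markers were also lower in part. Of 7 tested red cell markers 3 fell and 1, Slc4a1, rose, by 0.35 ± 0.09 (SE). Without knockdown C or any 1 wild-type array 0 rose. Hba-a1, Epb42 and Klf1 did not pass. Signals of Hba-a1 (67.2 to 128.2) and Epb42 (46.6 to 88.9) were close to background, so a lack of change cannot be read from them. The sums were 3334 to 3577 against 15148 to 15450. The brightest, Hbb-y and Epor, made up most of the wild-type sums, with means of 9748 and 3990, and changed by -3.07 ± 0.06 and -2.34 ± 0.08. Alas2, the third that fell, changed by -0.67 ± 0.12. Of 10 megakaryocyte markers 8 fell and 0 rose, with sums of 92115 to 114607 against 140293 to 150171. The 8 falls ran from -2.61 ± 0.06 for Tubb1 to -0.43 ± 0.05 for Gp5. The 2 brightest markers in wild type, Itga2b and Pf4, were the ones that did not pass, at -0.03 ± 0.06 and -0.06 ± 0.04 (adjusted p 0.812 and 0.304). In these bulk samples, fewer cells of a type and less RNA per cell cannot be told apart. The part of other cell types in the falls of Dusp1, Dusp10, Spry1 and Spred2 was not tested.

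**Figure D5:**
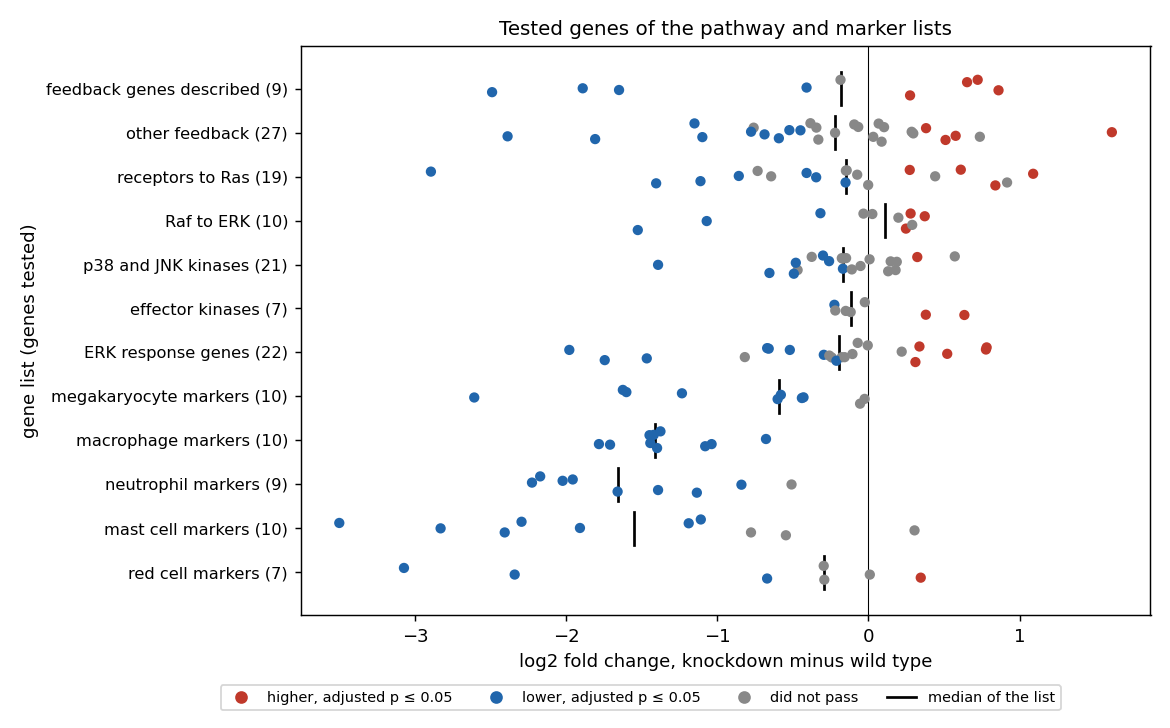
Log2 fold change, knockdown minus wild type, of the tested genes of each list, with the number tested in brackets. The list marked other feedback holds other dual-specificity phosphatases and other regulators of the pathway. Each point is a gene by its brightest probe set, red for a rise and blue for a fall at an adjusted p of at most 0.05 and grey otherwise, and black bars are list medians. The medians of the pathway lists lie between -0.22 and 0.11, and those of the macrophage, neutrophil and mast cell markers between -1.66 and -1.41.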

How the data were processed

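The study deposited 1 table of the series, with intensity values on a linear scale for 45101 probe sets on 6 arrays; the authors had scaled every array to the same mean with 2% trimmed at each end, as the deposited values show, and their software is not given in the sources used here. Groups came from the sample titles. Signals were tested as log2(signal + 32), quantile normalized because array medians spanned 0.346 on that scale, more than the limit of 0.2. The 64 control probe sets and those with a mean below the 30th percentile were left out, so 31526 were tested.

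Groups were compared with limma 3.58.1 in R 4.3.3 (lmFit; eBayes with trend; no covariate; two-sided; Benjamini-Hochberg over all probe sets tested). Mean ± SD values are of the deposited signals. The platform annotation left 9160 probe sets without a gene and gave several genes to 932 and 1 gene to 34945, controls aside, and symbols were updated by gene number. The brightest probe set of a gene represents it. Background is the highest of 27 bacterial control probe sets of an array; where a group lay at or below it on at least 2 of 3 arrays, the fold is written as at least, against the higher of the control and the signal. No pair of arrays shared more than 0.237% identical signals. The fit was tested on simulated data with known changes.

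The named genes were all members, Gata1, up to 5 called genes in each direction of each pathway list and the 2 brightest of each marker list. Other list genes mentioned in the text were not followed individually through the alternatives. The members and lists were chosen with earlier results of these data known. The letters A to C were not used as pairs in the main fit. Deviations of same-letter arrays from their group means correlated at -0.04 to -0.0096 over probe sets. That gave no sign of pairing but cannot exclude a shared preparation, which the labels do not describe.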

Additional observations from a re-analysis of the deposited data

How the results depend on the processing

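The alternatives were an offset of 1 or of 100, deposited values without further scaling, arrays centred on their medians, a filter at the 50th percentile or none, no intensity trend, the replicate letter as a block, each array left out in turn, and the average over a gene's probe sets. Member genes called numbered 6 to 8 over these, with 3 or 4 in each direction. With each array left out in turn, the probe sets called ran from 7383 to 10709, those higher from 3918 to 5517 and those lower from 3465 to 5192, and the members called stayed at 8, with 4 higher and 4 lower. With arrays centred on their medians 2609 probe sets were higher, against 5062. With the replicate letter as a block, 8757 probe sets were called against 9577, and all 8 member calls held; the block ended the calls of Rasal2, Araf and Mapkapk2.

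Signs turned for Gab2 (-0.019) and Araf (-0.035) with the average over a gene's probe sets, and, for genes that were not called, for Itga2b (0.28 as deposited, 0.081 with arrays centred, 0.056 without knockdown A, within -0.069 to 0.056 over the arrays left out) and Pf4 (0.22 as deposited, 0.020 with arrays centred). The cause was not tested. Of 54 other named genes, 16 lost a call under at least 1 alternative.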
